A study of Capra hircus with 12 samples.

Results

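MiR-183, miR-96 and miR-182 are 3 miRNAs encoded next to each other, and their abundance was followed through the annual cycle of the secondary hair follicle (SHF), the follicle type that makes cashmere. They were picked by name, as every entry called miR-183, miR-96 or miR-182 on either arm of its precursor. Earlier results of these data were known when this choice was made. The rule found 3 of the 376 listed goat miRNAs, 1 entry for each name. All 12 small RNA libraries came from SHFs cut from scapular skin of Liaoning cashmere goats aged 1.5 years, with 1 female and 1 male library per month. February and March represented telogen, the resting phase (4 libraries). May represented early anagen, when growth starts (2 libraries), and September mid-anagen (2 libraries). November and December represented catagen, the phase of regression (4 libraries). Per the methods, 3 goats of each sex were taken in each month, but how they were combined into 1 library per sex was not given in the sources used here. Therefore the p-values measure the spread between these libraries, which need not be the spread between animals. May and September were each sampled in 1 month, so month and phase cannot be told apart there.

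In mammals the 3 miRNAs are cut from 1 shared primary transcript, and their seeds, the bases near the 5′ end that choose target messages, are closely related. The cluster is best known from sensory organs of ectodermal origin, including the hair cells of the inner ear, photoreceptors, olfactory epithelium and sensory neurons, where it takes part in maturation and maintenance of the cells. Changes in the miR-96 seed cause progressive hearing loss in humans and mice. In the RefSeq annotation of the goat genome the order on the chromosome is UBE2H, a ubiquitin-conjugating enzyme gene, then MIR183, MIR96 and MIR182, then NRF1, the gene of a nuclear respiratory factor.

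Libraries held 3135292 to 5788032 miRNA counts. Levels are given as TPM, here counts per 1000000 (CPM) of a library's summed miRNA counts, or as TMM CPM, the same quantity after TMM scaling, a correction for libraries in which a few abundant miRNAs take up more or less of the total. TMM factors were 1.01 to 1.29 in telogen and May and 0.813 to 0.916 in September and catagen. The choice of scale therefore moved fold changes between these sets of months. Against library totals, TMM raised the median log2 fold change over the 300 tested miRNAs by 0.52 from May to September, by 0.55 from May to catagen and by 0.32 from telogen to September, and lowered it by 0.35 from catagen to telogen and by 0.19 from telogen to May. With library totals 9 of 80 calls from May to September pointed up, against 29 of 55 with TMM. The corresponding numbers were 10 of 82 against 27 of 50 from May to catagen, 4 of 42 against 14 of 28 from telogen to September, and 43 of 48 against 19 of 32 from catagen to telogen. A change was called at an adjusted p under 0.05 and at least 2-fold.

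The cluster was present in every library and was dominated by miR-183. Of 45562 counts assigned to the 3 miRNAs, miR-183 took 41019 (90.0%), miR-182 took 4265 (9.36%) and miR-96 took 278 (0.610%). MiR-183 averaged 751 ± 109 TPM (SD, n = 12), miR-182 averaged 77.1 ± 21.5 TPM and miR-96 averaged 5.03 ± 2.38 TPM. By abundance miR-183 held places 60 to 77 of 376, miR-182 places 119 to 179 and miR-96 places 215 to 294. The share of a library's counts taken by the 3 together was lowest for the May male, at 0.0651%, and highest for the September male, at 0.107%. A count of 0 would have allowed up to 0.518 to 0.957 TPM depending on the library, so all 3 were above the detection limit in each. MiR-96 lay closest to it, at 8 to 58 counts per library.

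The level of miR-183, the abundant member, was highest in September and lowest in May. It measured 637 TPM in the female and 756 in the male library of February, and 665 and 738 in those of March. In May it stood at 694 TPM in the female and 615 in the male. September gave 903 TPM in the female and 987 in the male, the highest values of the 12. In November the female library had 806 TPM and the male 670, and in December they had 766 and 773. Telogen averaged 699 ± 57.2 TPM (n = 4), May 654 ± 55.8 (n = 2), September 945 ± 59.0 (n = 2) and catagen 754 ± 58.7 (n = 4). September alone did not overlap any other group on this scale. After TMM scaling the means were 633 ± 25.5, 517 ± 55.0, 1073 ± 11.6 and 878 ± 86.9 CPM, and then no pair of groups overlapped. By month the TMM order was September, November, December, February, March and May, in which November overlapped December and February overlapped March. On the TPM scale every neighbour after September overlapped. How many of the 300 tested miRNAs also showed no overlap was not counted, here or for the members below. From May to September 130 of the 300 had an unadjusted p under 0.05 (edgeR), which does not give that share. A lack of overlap is therefore a description and does not mark a miRNA out.

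The level of miR-182 dipped in May. It was 69.1 TPM in the female and 64.0 in the male library of February, and 97.8 and 66.1 in those of March. May gave 50.3 TPM in the female and 31.3 in the male, the lowest values of the 12. September gave 92.9 and 82.1 TPM, November 84.2 and 95.6, and December 104 and 87.9, female first. Means were 74.2 ± 15.8 TPM for telogen, 40.8 ± 13.5 for May, 87.5 ± 7.68 for September and 92.9 ± 8.69 for catagen, or 68.1 ± 18.5, 32.3 ± 11.3, 99.8 ± 13.9 and 108 ± 6.09 TMM CPM. May overlapped no other group on either scale, but how many tested miRNAs share this was not counted. Among the other months all neighbours in the order of levels overlapped on both scales.

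MiR-96, the member with the fewest counts, was highest in telogen. Its level was 5.53 TPM in the female and 5.86 in the male library of February, and 11.4 and 6.77 in those of March. It measured 5.32 and 4.47 TPM in May, 2.96 and 4.69 in September, 2.31 and 4.12 in November, and 3.11 and 3.88 in December, female first. Telogen did not overlap May or catagen on either scale, and the female March library stood highest. Again the share of tested miRNAs without such overlap was not counted. Means were 7.39 ± 2.72 TPM for telogen, 4.90 ± 0.601 for May, 3.83 ± 1.22 for September and 3.36 ± 0.819 for catagen. Pooled by phase, the counts gave 7.40 CPM for telogen (95% exact Poisson interval 6.24 to 8.71), 4.95 for May (3.47 to 6.85, from 36 counts), 3.80 for September (2.72 to 5.18, from 40 counts) and 3.41 for catagen (2.59 to 4.41, from 58 counts). These intervals cover counting error only, because the counts were pooled and the spread between libraries was left out. The reads carry no molecular identifiers, so even counting error may be understated. All 12 counts of miR-96 were even numbers, which held for 1 of the 376 miRNAs, and the cause was not tested. If every molecule had been counted as a pair of reads, the telogen interval would be 5.79 to 9.32 CPM and the catagen interval 2.29 to 4.90. All other miR-96 results, including its entry into the tests, its fold changes and its ratio intervals, use the counts unhalved.

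**Figure D1:**
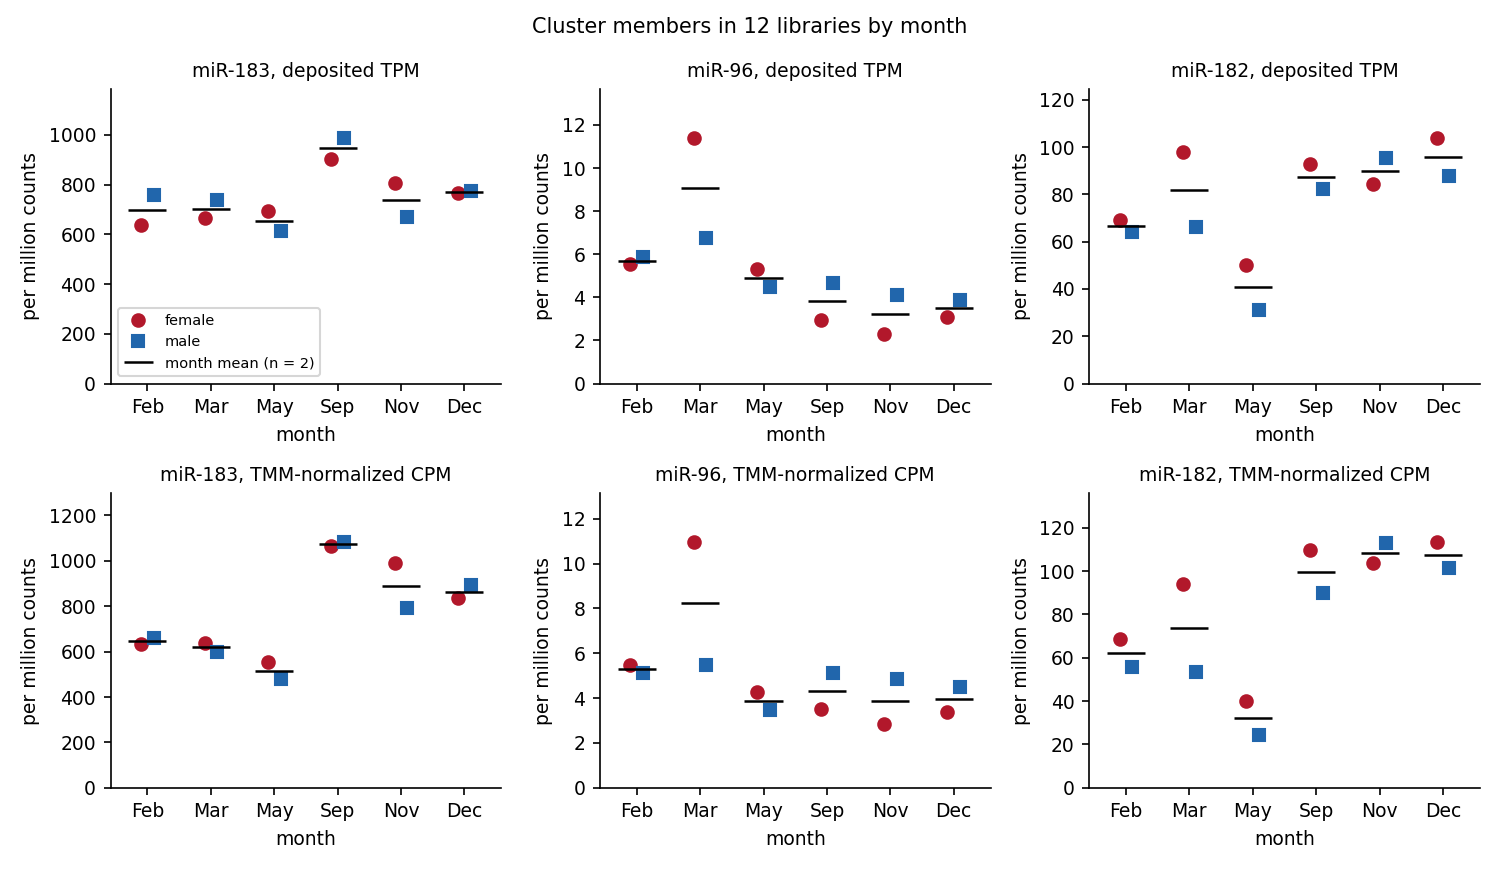
Level of each member in the 12 libraries by month, as TPM (top row, counts per 1000000 of the library total) and as TMM CPM (bottom row), with female libraries as circles, male libraries as squares and month means (n = 2) as lines. MiR-183 is highest in September, miR-182 is lowest in May, and miR-96 is highest in the female March library at 11.4 TPM.

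From May to September, across the growth phase, miR-183 and miR-182 rose. MiR-183 had a log2 fold change of 1.05 (SE 0.15, 95% interval 0.73 to 1.38, adjusted p = 0.000894, edgeR quasi-likelihood test). MiR-182 had a log2 fold change of 1.62 (SE 0.29, interval 0.98 to 2.26, adjusted p = 0.00206). MiR-96 gave 0.15 (SE 0.45, interval -0.83 to 1.13, adjusted p = 0.823). Calls were made for 55 of 300 miRNAs (18.3%) and for 2 of the 3 members. In bulk follicle RNA, more cells of a type that carries a miRNA and more of the miRNA per cell cannot be told apart. With library totals the size of the change was 0.53 for miR-183 (adjusted p = 0.0182, under 2-fold), 1.10 for miR-182 (adjusted p = 0.00808, still called) and -0.36 for miR-96. MiR-183 also dropped below 2-fold, with an adjusted p still under 0.05, without the female March (0.99), male March (0.89), female May (0.92) or male May library (0.92).

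Between May and catagen miR-182 was again the member with the larger difference. It rose from 32.3 to 108 TMM CPM, a log2 fold change of 1.73 (SE 0.27, interval 1.15 to 2.32, adjusted p = 0.000866). The call was made for 50 of 300 miRNAs (16.7%) and for this 1 member. MiR-183 differed by 0.76 (SE 0.13, interval 0.47 to 1.05, adjusted p = 0.00119), which was under 2-fold, and with library totals by 0.20 (adjusted p = 0.23). MiR-96 gave 0.015 (SE 0.40, adjusted p = 0.974) with TMM and -0.54 with library totals.

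From telogen to May, at entry into growth, miR-182 fell, with a call that lay near both limits of the rule. Its log2 fold change was -1.07 (SE 0.26, interval -1.64 to -0.50, adjusted p = 0.0341), and calls covered 7 of 300 miRNAs (2.33%). The call was lost with library totals (-0.86, adjusted p = 0.0572), in a fit of the 2 groups alone (-1.05, adjusted p = 0.157), and among miRNAs over 5 CPM in all 12 libraries (-0.94, adjusted p = 0.0373, under 2-fold). It was also lost when 1 of 8 libraries was left out: male May (-0.74, adjusted p = 0.363), female March (-0.83, adjusted p = 0.0539), female May (-1.31, adjusted p = 0.0615), female February (-1.08, adjusted p = 0.0661), male February (-1.16, adjusted p = 0.0573), and the male November, female December and male December libraries (adjusted p = 0.0531, 0.0541 and 0.0511). MiR-183 gave -0.29 (SE 0.13, interval -0.58 to -0.01, adjusted p = 0.159) and miR-96 gave -0.80 (SE 0.38, interval -1.63 to 0.04, adjusted p = 0.188).

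No member was called from September to catagen, in a comparison with 0 calls among 300 (0%). Without adjustment 23 miRNAs had p under 0.05, and RLE scaling, DESeq2 and the likelihood-ratio test each called 1 miRNA. MiR-183 went from 1073 to 878 TMM CPM, a log2 fold change of -0.29 (SE 0.13, interval -0.57 to -0.01, adjusted p = 0.619). The values for miR-182 and miR-96 were 0.11 (SE 0.25, adjusted p = 0.929) and -0.14 (SE 0.39, adjusted p = 0.929).

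From catagen to telogen the abundant members and miR-96 had differences of opposite sign, none of them called. Calls covered 32 of 300 miRNAs (10.7%). MiR-183 differed by -0.47 (SE 0.11, interval -0.70 to -0.24, adjusted p = 0.00517) and miR-182 by -0.66 (SE 0.20, interval -1.10 to -0.23, adjusted p = 0.0234), both below 2-fold. With library totals these values were -0.11 (adjusted p = 0.433) and -0.32 (adjusted p = 0.18). MiR-96 differed by 0.78 (SE 0.31, interval 0.10 to 1.46, adjusted p = 0.0704), and by 1.12 (adjusted p = 0.0164, called) with library totals. Without the female March library the miR-96 value was 0.48 (adjusted p = 0.183). The 4 telogen libraries all lay above the 4 catagen libraries for miR-96, at 5.53 to 11.4 against 2.31 to 4.12 TPM. How many of the tested miRNAs also separated these groups was not counted. MiR-96 had entered the test only because more than 5 CPM were reached in 5 libraries, the 4 of telogen and the female May library.

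Between telogen and September miR-183 was higher in September by 0.76 (SE 0.13, interval 0.49 to 1.03, adjusted p = 0.00239), short of 2-fold, and 28 of 300 miRNAs (9.33%) were called. MiR-182 gave 0.55 (SE 0.24, interval 0.03 to 1.07, adjusted p = 0.101) and miR-96 gave -0.64 (SE 0.38, interval -1.47 to 0.18, adjusted p = 0.217). These phase comparisons share libraries, May entering 3 of the 6, and are not separate evidence for one another. Whether the members differed from each other in fold change was not tested.

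**Figure D2:**
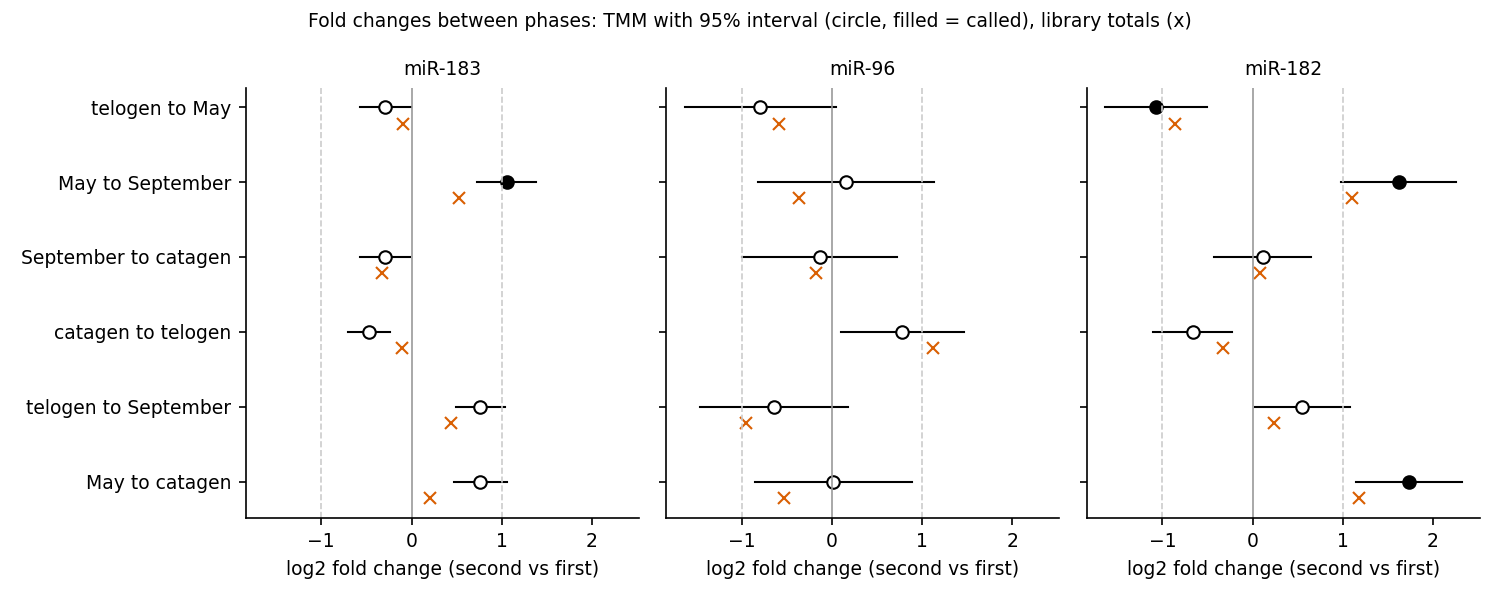
Log2 fold change of each member in the 6 phase comparisons, with TMM scaling and 95% intervals (circles, filled where called) and with library totals (crosses); dashed lines mark 2-fold. MiR-182 is called from telogen to May, May to September and May to catagen, miR-183 from May to September, and miR-96 in none.

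Ratios between members within a library do not depend on how libraries are scaled. They are read here between libraries only, as a description without a test. The ratio of miR-182 to miR-96 counts separated the year into low and high months. It was 12.5 and 10.9 in February, 8.59 and 9.75 in March, and 9.45 and 7.0 in May, female first. It then stood at 31.4 and 17.5 in September, 36.4 and 23.2 in November, and 33.4 and 22.7 in December. The highest of the first 6 libraries lay below the lowest of the last 6. How many other pairs of miRNAs split the libraries in this way was not counted, for this ratio or the next. Counting error was wide, with an exact 95% interval of 18.2 to 85.1 in the female November library, where miR-96 had 8 counts, and 3.98 to 13.3 in the male May library. Geometric means were 10.3 for telogen, 8.14 for May, 23.4 for September and 28.3 for catagen.

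The ratio of miR-183 to miR-96 split the libraries in the same way. It ran from 58.4 to 137.7 in telogen and May and from 162 to 348 in September and catagen, with geometric means of 98.6, 134, 253 and 229 in the order of phases. The 2 abundant members kept closer proportions. MiR-183 to miR-182 ranged from 6.80 to 12.02 in the 10 libraries outside May. In May it was 13.8 in the female (exact 95% interval 11.98 to 15.96) and 19.7 in the male (16.1 to 24.4), above all others. Over the 12 libraries the spread from lowest to highest was 2.89-fold for miR-183 to miR-182, 5.20-fold for miR-182 to miR-96 and 5.96-fold for miR-183 to miR-96.

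**Figure D3:**
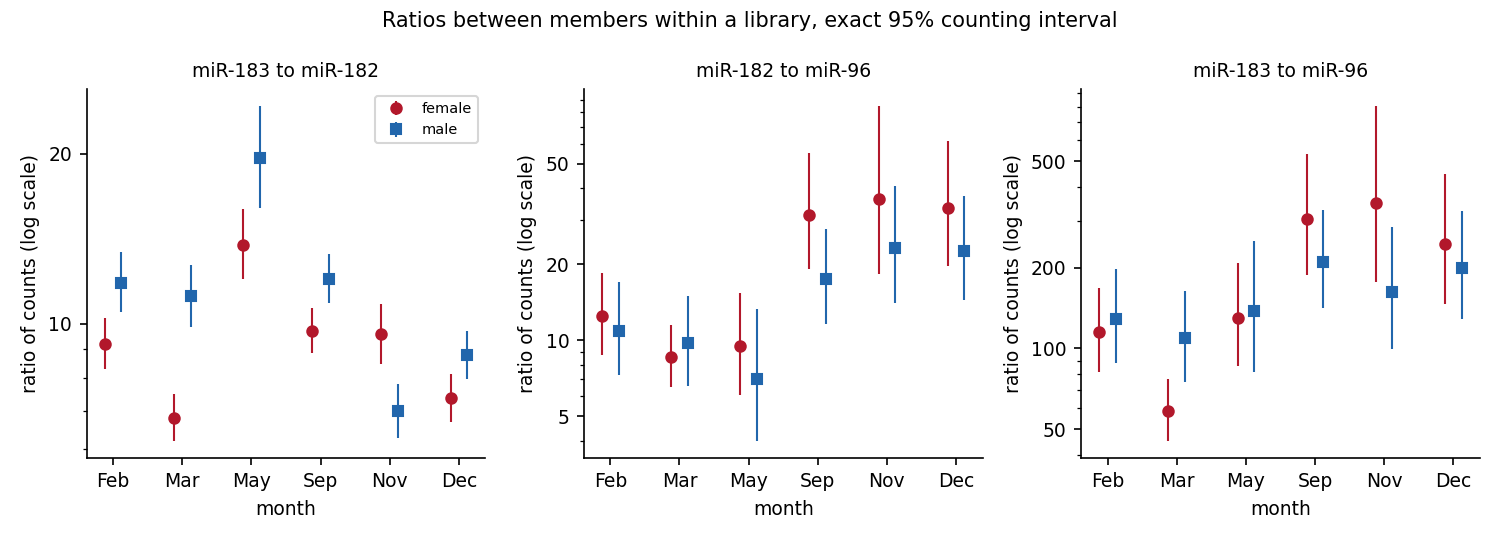
Ratio of counts for each pair of members in each library by month, on log axes, with exact 95% counting intervals, female libraries as circles and male libraries as squares. MiR-183 to miR-182 peaks in May, and both ratios to miR-96 are higher in September to December than in February to May.

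Across the 12 libraries the members were compared pair by pair on log2 TMM CPM, 3 pairs in all. Permutation tests over the 12 libraries shuffled them without regard to phase. Their p-values therefore do not separate differences shared between phases from agreement within a phase. MiR-183 and miR-182 had Pearson r = 0.83 (permutation p = 0.00048, adjusted p = 0.00144) and Spearman rho = 0.72 (permutation p = 0.0112, adjusted p = 0.0336). Leaving out the male May and male September libraries gave r = 0.82. Of all 44850 pairs of tested miRNAs, whose median r was 0.0028, 2.60% had an r at least as high. With library totals r was 0.46 (adjusted p = 0.256), and 32.0% of pairs were at least as high. Within months an uncentred r was taken on the female minus male differences, without subtracting their mean over the 6 months. A steady sex difference therefore enters this value, which is not a Pearson r. It was 0.31 (exact permutation p = 0.558), and the 2 miRNAs differed in the same direction in 2 of 6 months.

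For miR-96 no correlation with the other members passed the test over the 12 libraries. Its r was -0.29 with miR-183 (permutation p = 0.383, adjusted p = 0.575, rho = -0.22) and 0.06 with miR-182 (permutation p = 0.847, adjusted p = 0.847, rho = -0.30). Without the male May and male September libraries the first became -0.61 (unadjusted permutation p = 0.0469). Without both May libraries the second became -0.34. Within months the uncentred r was 0.54 for miR-96 with miR-182 (exact permutation p = 0.0542) and -0.07 for miR-96 with miR-183 (exact permutation p = 0.881). Among the 299 other tested miRNAs, ordered by r with miR-183, miR-182 came 28th and miR-96 came 193rd. Ordered by r with miR-96, miR-182 came 127th and miR-183 came 204th.

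**Figure D4:**
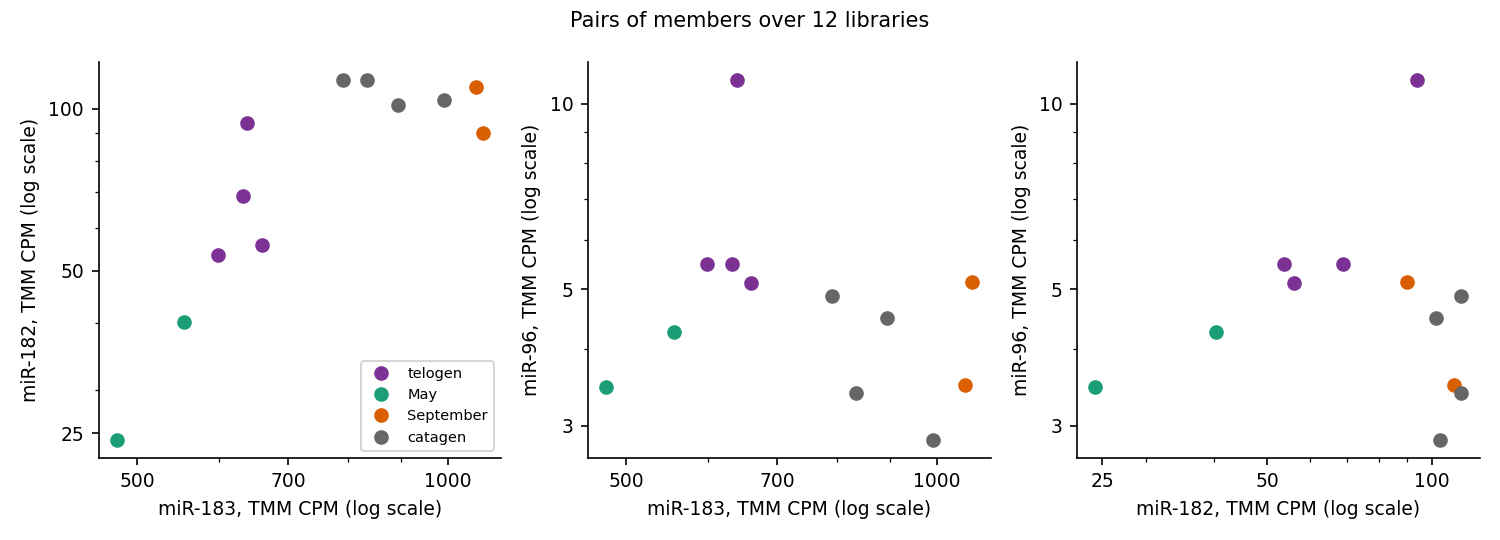
Each pair of members plotted against each other over the 12 libraries in TMM CPM on log axes, coloured by phase. MiR-183 and miR-182 lie along a rising band from May through telogen to September and catagen (r = 0.83), while miR-96 shows no such band with either (r = -0.29 and 0.06).

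The miRNAs whose patterns were most like the mean of the members were miR-155-5p (r = 0.88, n = 12 libraries), miR-30a-3p (0.87), miR-23b-3p (0.87), miR-126-3p (0.86) and miR-1296 (0.86). Those least like it were miR-544-5p (-0.89), miR-93-5p (-0.88) and miR-17-5p (-0.85). MiR-155-5p is known from activated leukocytes, miR-126-3p from endothelium, and miR-17-5p and miR-93-5p belong to related clusters that promote proliferation. Chosen after their values were seen, the best matches of single members were miR-25-3p (r = 0.95) and miR-378-3p (0.94) for miR-183, miR-30a-3p (0.94) and miR-23b-3p (0.93) for miR-182, and miR-29a-3p (0.81) for miR-96. All points share library depth and TMM factors, and these values are descriptions.

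No member was called between females and males, in a fit that held month constant. None of the 300 miRNAs was called either (0%), while 34 had an unadjusted p under 0.05, DESeq2 called 0, and the likelihood-ratio test and the unfiltered fit called 1 each. MiR-182 was lower in males by 0.35 on the log2 scale (log2 fold change -0.35, SE 0.15, interval -0.68 to -0.03, unadjusted p = 0.037 and adjusted p = 0.407 by edgeR), with the female library higher in 5 of 6 months and November the exception. For miR-183 the log2 fold change was -0.08 (SE 0.10, adjusted p = 0.842), with the female higher in 3 of 6 months. For miR-96 it was -0.024 (SE 0.27, adjusted p = 0.983), the female being higher in February, March and May and lower in September, November and December on the TMM scale. The widest miR-96 gap was in March, 0.99 on the log2 scale.

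The labelled tissue was checked against marker miRNAs of follicle cell types. Of 8 epithelial names 7 were listed, and miR-205 was not analysed here. MiR-203, a keratinocyte differentiation miRNA, averaged 63230 TPM, miR-200c 5705, miR-200b 5387 and miR-200a 1601, the last 3 being members of the epithelial miR-200 family. The epithelial sum was 55725 to 78630 TMM CPM in telogen, with 63311 to 71031 for May, 67392 to 80051 for September and 78607 to 104604 for catagen. From May to September 1 of the 7 rose, miR-200a, by 1.43 (adjusted p = 0.00131), and none fell. MiR-184, another of them, was higher in catagen than in telogen or May and higher in September than in telogen, while miR-141 was lower in September than in telogen. The median over the list from May to September was 0.33, against 0.066 over all tested miRNAs. Set against the same library's epithelial counts, miR-183 stood at 9.60 ± 1.58 per 1000 for telogen, 7.69 ± 0.194 for May, 14.7 ± 1.62 for September and 9.61 ± 1.35 for catagen. On this measure miR-182 was 1.06 ± 0.448, 0.475 ± 0.130, 1.38 ± 0.355 and 1.18 ± 0.170. MiR-96 was 0.106 ± 0.0605, 0.0574 ± 0.00364, 0.0580 ± 0.00877 and 0.0439 ± 0.0162. Per epithelial count September was highest and May lowest for both abundant members. Without this division catagen was highest for miR-182, at 108 against 99.8 TMM CPM in September. The divisor was mostly miR-203, which averaged 58724 TMM CPM in September and 79983 in catagen. By contrast miR-200a (2459 to 1811), miR-200b (6256 to 4817) and miR-200c (5596 to 5087) had lower means in catagen. MiR-184 (470 to 507) and miR-141 (162 to 177) had higher ones, and none of the list was called between these groups. In the paper's RT-qPCR miR-203 was lower in SHFs than in epidermis or primary follicles.

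Some miRNAs listed as markers of other cell types also differed between the months. Whether those cells changed in number, and their part in the members' differences, was not tested. The sensory and neural list, with 3 of 5 names listed, summed to 1289 to 1394 TMM CPM in telogen, with 1316 to 1631 for May, 2205 to 2369 for September and 2094 to 2667 for catagen. Most of the sum was miR-7-5p, with means of 1159, 1284, 2041 and 2074 TMM CPM in the same order. Of the 4 tested, the 1 call from May to September was miR-9-5p, a miRNA of neural progenitors and a small part of the sum. MiR-9-5p rose from 32.5 to 70.6 TMM CPM (log2 fold change 1.12, adjusted p = 0.026, edgeR). It was 1.17 higher in catagen than in May (adjusted p = 0.0116, edgeR). Its telogen mean, 67.5 TMM CPM, was close to that of September. MiR-124 and miR-138, further markers of neurons, were not analysed here. The dermal mesenchyme list (5 of 6 names) ran from 100854 to 141146 in telogen, with 109055 to 109271 for May, 154416 to 166616 for September and 136829 to 162466 for catagen. MiR-143-3p, 1 of 9 entries, made up most of the September sum. By the paper's in situ hybridization its signal lay in the matrix of secondary and primary follicles and not in the bulge. The sum therefore does not measure dermal cells alone. MiR-143-3p rose from May to September (55149 to 124402 TMM CPM) and was higher in catagen than in May. The median over the dermal list from May to September was -0.32, and 3 abundant entries had adjusted p under 0.05 in the other direction, below 2-fold: miR-199a-3p (-0.85), miR-199a-5p (-0.79) and miR-199b-5p (-0.59). Leukocyte markers (4 of 5 names) summed to 871 to 1699 in telogen, with 1016 to 1136 for May, 943 to 1249 for September and 861 to 1057 for catagen. Of 5 leukocyte entries miR-223-3p and miR-223-5p fell from telogen to May, miR-223-5p rose from May to September, and miR-146a and miR-223-3p were higher in telogen than in catagen. The leukocyte median from May to September was 0.90, against 0.066 over all tested miRNAs. Over that step miR-155-5p went from 208 to 388 TMM CPM and miR-150 from 106 to 134, neither called. MiR-146a, the most abundant entry, went the other way, from 741 to 528. Erythrocyte markers (2 of 3 names) stayed between 6.39 and 93.7 TMM CPM, the highest in telogen, with miR-451-5p, 1 of 2, called higher in telogen than in catagen. Muscle markers (4 of 4 names) lay between 1468 and 4175 with miR-1, 1 of 4 tested, rising from May to September and higher in catagen than in May. The muscle median from May to September was -0.35, with miR-133a-3p at -0.52 (adjusted p = 0.246), miR-133b at -0.19 and miR-133a-5p at -0.77. The endothelial miR-126 lay between 7133 and 13716 with no call.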

How the data were processed

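Small RNA from 12 SHF libraries (1 female and 1 male in each of 6 months) was sequenced by the authors on an Illumina HiSeq 2500. Per the labels and the study's methods, reads were mapped with Bowtie 0.12.9 to the goat assembly CHIR_2.0, miRNAs were identified with miREvo and mirDeep2, and known ones were named after miRBase. The deposited count tables hold whole-number reads per miRNA without normalization. The deposited TPM values equalled counts per 1000000 (CPM) of the library total to within 0.005. How reads that fit several miRNAs were shared out was not given in the sources used here. RefSeq gene order comes from assembly ARS1.2, so no coordinates are given.

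Counts were tested with edgeR 4.0.16 in R 4.3.3 (TMM, quasi-likelihood, 1 fit over 12 libraries and 4 phases, or sex with month as a term). Tested were 300 of 376 miRNAs with more than 5 CPM in at least 2 libraries, with Benjamini-Hochberg adjustment over all of them. Standard errors were derived from the F statistic of each test. Correlations used a prior count of 1 and 100000 permutations (scipy 1.17.1), two-sided, adjusted over 3 pairs. Within months r was uncentred, with an exact permutation test and no adjustment. Wilson and exact 95% intervals cover counting error only. Alternatives were library totals, RLE, DESeq2 1.42.0, the likelihood-ratio test, other filters, 2-group fits, sex as a block and each library left out. The leave-one-out runs of correlations and sums were added after seeing the data. Scripts were tested on simulated data. Depth was 3135292 to 5788032 counts per library.

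The members, marker lists and tests were chosen with earlier results of these data known. Named miRNAs were all members, the 5 most and 3 least like their mean over the libraries, and up to 4 of the most abundant of each marker list. MiR-184, miR-141 and miR-223-5p fall outside this rule and were named after their values were seen, because they were called. A rule on shared seeds was set too and was not applied, since no mature sequences were used here. Lists were epithelium miR-200a, miR-200b, miR-200c, miR-141, miR-429, miR-203, miR-205 and miR-184, dermal mesenchyme miR-199a, miR-199b, miR-214, miR-143, miR-145 and miR-152, leukocyte miR-142, miR-150, miR-155, miR-223 and miR-146a, endothelium miR-126, erythrocyte miR-451, miR-144 and miR-486, muscle miR-1, miR-133a, miR-133b and miR-206, and sensory and neural miR-124, miR-9, miR-128, miR-138 and miR-7.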

Additional observations from a re-analysis of the deposited data

Results flagged for a closer look

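In the telogen group of 4 libraries, the female March library held 97.79 TPM of miR-182 against 63.97 to 69.11 TPM in the other 3, a gap of 0.848 of the group's range, above the critical value of Dixon's test for 4 values. It was 1 of 12 groups of 4 values examined (the TPM of 3 members and their 3 ratios, in telogen and in catagen), and chance flags about 1 in 20 such groups. The same library held the highest miR-96 of the 12, at 11.4 TPM. Without it miR-182 differed by -0.83 from telogen to May (adjusted p = 0.0539, edgeR) and by -0.83 from catagen to telogen (adjusted p = 0.00723), against -1.07 and -0.66 with it.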

How the results depend on the processing

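Of 404 alternative values for the 21 fold changes, 358 kept direction and side of the call, 18 lost the call, 1 gained it and 27 changed sign. MiR-182 remained called from May to September and from May to catagen in 20 of 20 (1.10 to 1.78 and 1.18 to 1.94). With library totals miR-182 from telogen to May was -0.86, miR-183 from May to September 0.53, miR-96 from catagen to telogen 1.12, from May to September -0.36 and from May to catagen -0.54, and for male against female miR-183 was 0.017 and miR-96 0.086. Keeping only miRNAs over 5 CPM in all 12 libraries gave -0.94 for miR-182 from telogen to May and 0.83 for miR-183 from May to September, and fits of the 2 groups alone gave -1.05 (not called, adjusted p = 0.157) and 0.97 (under 2-fold). MiR-96 had no value under that filter, nor in fits of only May and September, September and catagen, or May and catagen. From May to catagen miR-96 was -0.022 with RLE, -0.022 with DESeq2 and -0.053 without a filter, and by sex 0.027 with DESeq2 and 0.066 without a filter, where miR-183 was 0.021.

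Leaving out 1 library at a time gave -1.31 to -0.74 for miR-182 from telogen to May and 0.89 to 1.07 for miR-183 from May to September. The range was -0.15 to 0.40 for miR-96 from May to September, -0.13 to 0.13 from May to catagen and -0.39 to 0.17 from September to catagen. It was -0.023 to 0.26 for miR-182 from September to catagen, and by sex -0.11 to 0.055 for miR-183 and -0.14 to 0.33 for miR-96. Without 1 May or September library the lone library left was assumed to vary like the other groups. The correlation of miR-183 with miR-182 was 0.46 with totals, and the uncentred value within months was 0.31. That of miR-183 with miR-96 was -0.61 without the 2 farthest libraries. That of miR-182 with miR-96 was -0.15 with totals, -0.34 without the 2 farthest and -0.19 to 0.18 leaving out 1. Summed as TPM, the members stood at 781, 700.1, 1036 and 850 in telogen, May, September and catagen, against 708, 553, 1177 and 990 TMM CPM. The cause of these differences was not tested.

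Calls over all miRNAs from telogen to May were 7, against 4 with totals, 13 with DESeq2, 13 with the likelihood-ratio test, 0 with the 2 groups alone and 15 with sex as a block. From May to catagen they were 50 against 82 with totals, from catagen to telogen 32 against 17 with the stricter filter, and from telogen to September 28 against 18 with the 2 groups alone. Leaving out 1 library moved calls from telogen to May to 0 (male May), 1 (male February or female May), 2 (male November), 3 (male December), 4 (female December) or 27 (male March). Those from May to September became 36 without male May and 27 without female September, from May to catagen 27 without male May, from telogen to September 6 without female September, and from September to catagen 1 without male March or male November. No paired analysis was possible because the labels number no replicates across phases. Sex as a block changed no member's call. MiR-96 had 8 to 58 counts per library, which limited the precision of its fold changes.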
